A study of Danio rerio with 4 samples.

Results

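The Nkx2 genes nkx2.5, nkx2.7, nkx2.3 and nkx2.2a were examined in whole zebrafish embryos that lack functional tbx1. They were taken by gene symbol from a table of 32538 genes, as 4 of the 15 genes described here whose symbol begins with nkx and a number, and the question was whether paralogs with heart or pharyngeal expression follow nkx2.5. The mutant group was 2 libraries of embryos with the vgo allele of tbx1, which the labels call null. The control group was 2 libraries of wild-type embryos. All embryos were at 6 somites, 12 h after fertilization, and the tip of the tail with a little yolk had been cut off each for genotyping before polyadenylated RNA was taken from the rest. The labels do not say whether a library was a pool of embryos or whether controls were siblings of the mutants, so the p-values reflect no more than the scatter among these 4 libraries, part or all of which could be technical.

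Nkx2 genes encode homeodomain transcription factors, named after NK genes of Drosophila such as tinman, which the fly needs to form its heart. In vertebrates nkx2.5 marks heart progenitors and, later, pharyngeal arch mesoderm. In zebrafish nkx2.7 is expressed in the heart-forming mesoderm before nkx2.5 and also in pharyngeal endoderm, and the pair act redundantly in keeping ventricular identity. nkx2.3 is a gene of pharyngeal endoderm, and nkx2.2a marks the ventral neural tube next to the floor plate, where Hedgehog signalling turns it on. The T-box factor Tbx1 acts in pharyngeal mesoderm and endoderm, and the series title names the nkx2.5-positive cardiopharyngeal lineage as its subject.

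Expression was deposited as FPKM (fragments per kilobase of transcript, scaled to the total of mapped fragments) with a lower and an upper 95% bound for each gene and library. Relative depth was taken as the inverse of the most common FPKM ratio to control 1, among genes with low values in control 1. It put mutant 1, mutant 2 and control 2 at 0.821, 0.724 and 0.840 of the depth of control 1, while read totals were not given. A gene was tested where its estimate was marked usable in all 4 libraries and its mean was at least 1 FPKM, which left 13448 genes. Differences are mutant minus control on the log2(FPKM + 0.5) scale, which understates the change of low genes. tbx1 RNA itself was at 4.91 and 4.52 FPKM in the mutants, against 9.08 and 9.14 FPKM in the controls (log2 -0.88, SE 0.0910, unadjusted p = 2.87e-04, adjusted p = 0.227 in limma). Of all deposited values of tested genes, 26.0% lay outside their own 95% bounds, but all 16 values of the 4 Nkx2 genes lay inside theirs.

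The 4 genes covered a wide range of levels. nkx2.7 was the most abundant of these 15 nkx genes, with 40.4 ± 3.52 FPKM in the mutants and 44.4 ± 1.71 FPKM in the controls (SD, n = 2 each), and its mean over the 4 libraries lay above that of 83.1% of tested genes. nkx2.2a followed with 6.20 ± 0.527 FPKM in the mutants and 5.54 ± 0.453 FPKM in the controls (SD, n = 2 each). nkx2.3 (1.44 ± 0.714 FPKM in the mutants, 1.75 ± 0.712 FPKM in the controls) and nkx2.5 (0.846 ± 0.452 FPKM in the mutants, 1.52 ± 0.240 FPKM in the controls) were the lowest of the 4 (SD, n = 2 each). The values of nkx2.7, nkx2.2a and the lower pair were separate in every library, whereas nkx2.3 and nkx2.5 overlapped and cannot be ranked. All 4 genes passed the minimum, nkx2.5 only through the controls, since its mutant mean was below 1 FPKM.

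None of the 4 Nkx2 genes passed an adjusted p of 0.05 in limma, and 0 of 4 had an unadjusted p under 0.05. Over all tested genes 0.0669% passed the adjusted threshold, and 1.99% had an unadjusted p under 0.05, 0.907% lower and 1.08% higher in the mutants. Both mutant values lay below both control values for nkx2.5 and nkx2.7, which was true of 9.14% of all tested genes. For nkx2.3 and nkx2.2a the groups overlapped. The deposited 95% bounds of the groups overlapped for all 4 genes, and they were apart for 0.64% of tested genes, 0.409% with the mutants below and 0.231% with the mutants above.

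**Figure D1:**
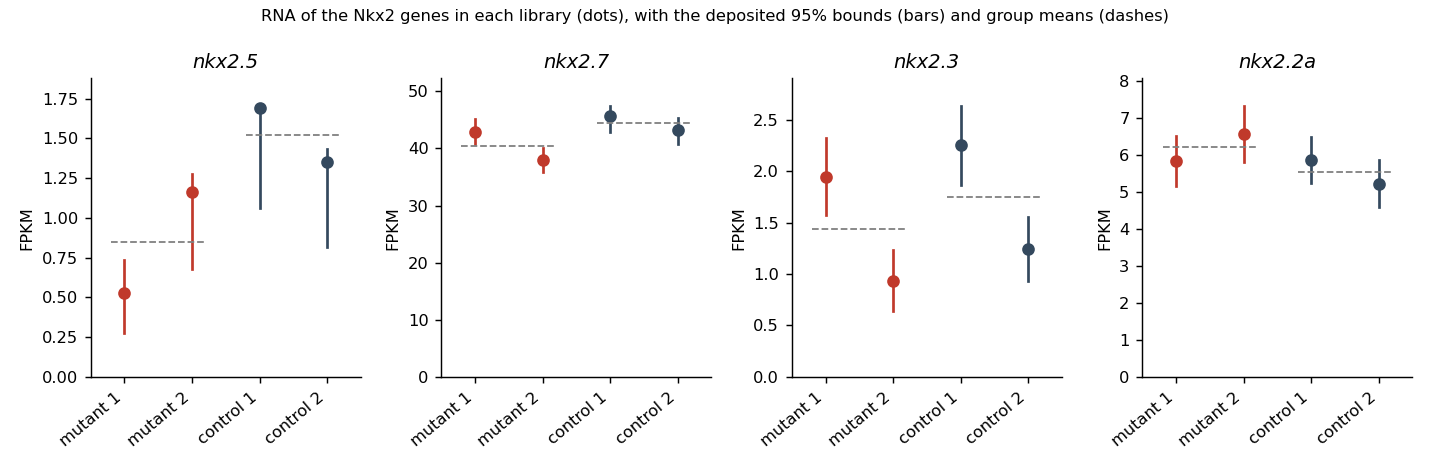
FPKM (y axis, from 0) of nkx2.5, nkx2.7, nkx2.3 and nkx2.2a in each library (x axis), with the deposited 95% bounds as bars and group means as dashes. nkx2.5 is lowest in mutant 1 at 0.526 FPKM and highest in control 1 at 1.69 FPKM, while nkx2.3 is low in both libraries numbered 2.

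nkx2.5 (ENSDARG00000018004, Zv9 chromosome 14 from 25240904 to 25243698) had 0.526 FPKM in mutant 1 and 1.17 FPKM in mutant 2, against 1.69 FPKM in control 1 and 1.35 FPKM in control 2. Its deposited bounds were 0.278 to 0.736 FPKM in mutant 1 and 0.678 to 1.28 FPKM in mutant 2, against 1.07 to 1.71 FPKM in control 1 and 0.818 to 1.43 FPKM in control 2. Mutant 1 therefore stood below both controls by its bounds, and mutant 2 shared its range with both. The mutant mean was 0.556 of the control mean, and the log2 difference was -0.62 (SE 0.286, 95% interval -1.38 to 0.13, unadjusted p = 0.0850, adjusted p = 1.0 in limma). The 2 mutants differed 2.22-fold from each other, more than the 2 controls, where control 2 had 0.799 of the level of control 1. Without mutant 1 the log2 difference was -0.27, and without mutant 2 it was -0.97, so the size of the difference rested on mutant 1.

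The position of nkx2.5 among other genes was described by its size alone. Of all tested genes, 0.900% had a more negative log2 difference than nkx2.5, and of the 1624 tested genes within 1.5 times its mean level, 1.17% did. nkx2.5 passed the minimum of 1 FPKM only through the controls, and that minimum left out the lower part of this range of levels. These shares are therefore a description and not a test. The deposited margin, meaning the distance between the bounds divided by 2 as a percentage of the FPKM value, was typically 23.7% at that level (median). For nkx2.5 it was 43.5% in mutant 1, 25.7% in mutant 2, 19.0% in control 1 and 22.7% in control 2. The low value of mutant 1 was thus also the least precise of the 4.

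nkx2.7 (ENSDARG00000021232, chromosome 8 from 52507260 to 52510351) was the member measured most precisely, with a margin of 5.10% to 5.47% of the value. It had 42.9 FPKM in mutant 1 and 37.9 FPKM in mutant 2, against 45.6 FPKM in control 1 and 43.2 FPKM in control 2. Mutant 1 was barely below control 2, and the low library was mutant 2, the one in which nkx2.5 was closer to the controls. The log2 difference was -0.14 (SE 0.0885, 95% interval -0.37 to 0.10, unadjusted p = 0.189, adjusted p = 1.0 in limma). Without mutant 2 it was -0.05, and without mutant 1 it was -0.22. The interval of nkx2.7 did not reach the estimate for nkx2.5, but that of nkx2.5 contained the estimate for nkx2.7.

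nkx2.3 (ENSDARG00000039095, chromosome 13 from 40756878 to 40759581) separated the libraries by their number and not by genotype. It had 1.95 FPKM in mutant 1 and 0.936 FPKM in mutant 2, against 2.25 FPKM in control 1 and 1.24 FPKM in control 2. Mutant 2 had 0.481 of the level of mutant 1, and control 2 had 0.552 of the level of control 1. In neither genotype did the bounds of the libraries numbered 1 and 2 overlap, with 1.57 to 2.32 FPKM in mutant 1 and 0.637 to 1.24 FPKM in mutant 2, and with 1.86 to 2.64 FPKM in control 1 and 0.930 to 1.56 FPKM in control 2. The share of tested genes with bounds apart by number was not computed. By values alone, both libraries numbered 1 lay above both numbered 2 for 28.7% of all tested genes, and the labels give the number no meaning. The genotype difference of -0.22 on the log2 scale (SE 0.358, 95% interval -1.17 to 0.72, unadjusted p = 0.561, adjusted p = 1.0 in limma) was smaller than this spread. It turned to 0.10 without control 1 and to 0.16 without mutant 2, fits in which the library numbers are not balanced between groups. Within each number the mutant value was below the control value. With the library number as a block in the fit, the difference was the same (unadjusted p = 0.170, adjusted p = 0.920 in limma).

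nkx2.2a (ENSDARG00000053298, chromosome 17 from 42929654 to 42937363), the neural member of the group, had a positive estimate. It had 5.83 FPKM in mutant 1 and 6.57 FPKM in mutant 2, against 5.86 FPKM in control 1 and 5.22 FPKM in control 2. Mutant 1 and control 1 were nearly equal, and mutant 2 and control 2 were the highest and the lowest of the 4 values. The log2 difference was 0.15 (SE 0.113, 95% interval -0.15 to 0.45, unadjusted p = 0.247, adjusted p = 1.0 in limma). It was 0.07 without control 2 and 0.07 without mutant 2.

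Whether a paralog followed nkx2.5 was examined by the log2 ratio of nkx2.5 to it within each library. With 2 libraries against 2 the exact permutation p cannot fall below 0.333, so this comparison cannot decide the question. Percentages are ratios of FPKM as deposited, while log2 ratios are of FPKM + 0.5, which shrinks a change of nkx2.5 more than the same fold change of an abundant paralog. Relative to nkx2.7, nkx2.5 stood at 1.23% in mutant 1 and 3.07% in mutant 2, against 3.71% in control 1 and 3.13% in control 2. The mean log2 ratio was -4.97 ± 0.619 in the mutants and -4.48 ± 0.117 in the controls (SD, n = 2 each), a difference of -0.49 (exact permutation test, two-sided, p = 0.667, adjusted over the 3 pairs 1.0). As deposited, both mutants were below both controls, mutant 2 only just, whereas the added 0.5 put mutant 2 between the controls. With no pseudocount, which was tried after the values were seen, the difference in the mean log2 ratio came to -0.81 (exact permutation test, two-sided, p = 0.333). With the 0.5 it was -0.05 without mutant 1.

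Relative to nkx2.3, nkx2.5 stood at 27.04% in mutant 1 and 125% in mutant 2, against 75.2% in control 1 and 109% in control 2. The mean log2 ratio was -0.52 ± 1.04 in the mutants and -0.12 ± 0.294 in the controls (SD, n = 2 each), and the difference of -0.40 had an exact two-sided permutation p of 1.0. The mutants lay on either side of the controls, and without mutant 1 the difference was 0.33. With no pseudocount it was -0.64 over all 4 libraries. Relative to nkx2.2a, nkx2.5 stood at 9.03% in mutant 1 and 17.7% in mutant 2, against 28.9% in control 1 and 25.9% in control 2. Here both mutants were below both controls, with a mean log2 ratio of -2.36 ± 0.381 in the mutants and -1.58 ± 0.0634 in the controls (SD, n = 2 each). The difference of -0.77 had an exact two-sided permutation p of 0.333, adjusted 1.0, and 0.333 is the smallest that 2 libraries against 2 can give. With no pseudocount the difference was -1.11.

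**Figure D2:**
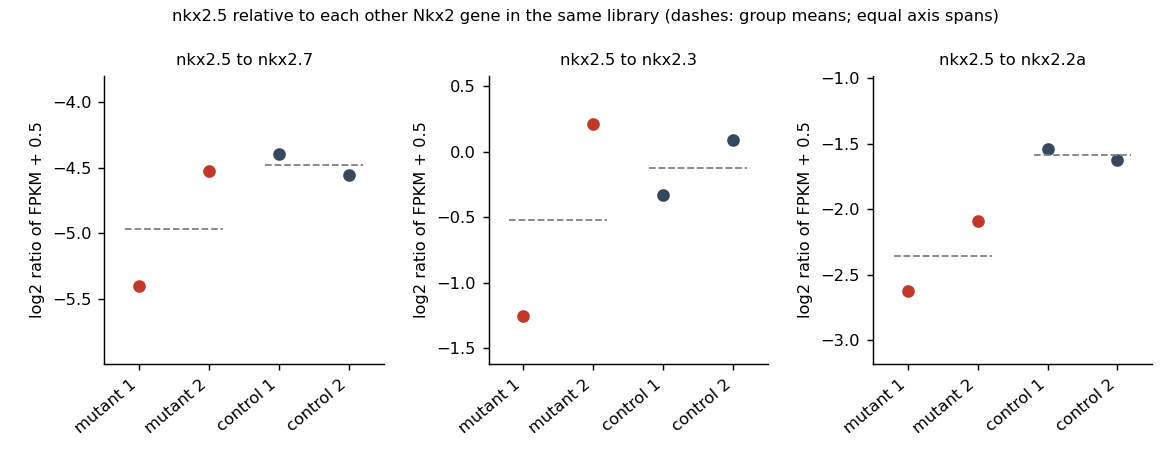
Log2 ratio of FPKM + 0.5 of nkx2.5 to nkx2.7, nkx2.3 and nkx2.2a (y axes, equal spans) in each library (x axis), with group means as dashes. Mutant 1 is the lowest point in each panel, and mutant 2, at -2.09, is below both controls for nkx2.2a. For nkx2.7 it lies between them here, but below both without the added 0.5.

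The nkx genes described, counted here with nkx2.5, nkx2.7, nkx2.3 and nkx2.2a, had estimates in both directions. Of the 12 tested, 9 were lower and 3 higher in the mutants (median log2 difference -0.08), against 42.8% of all tested genes lower and a median of 0.02. Over the 8 genes whose symbol begins with nkx2, 6 were lower (median -0.12). With 1 library left out, the sign turned for nkx6.2, nkx6.1, nkx2.1a, nkx2.1b, nkx1.2la and nkx3.2, as it did for nkx2.3. In such fits the library numbers are not balanced between groups. None of the 12 passed the adjusted threshold in limma (0.0669% of all tested genes did), and 1 had an unadjusted p under 0.05 (1.99% did).

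This was nkx2.9 (ENSDARG00000020332, chromosome 17 from 38422622 to 38423908), a gene of the ventral neural tube like nkx2.2a. It had 8.87 FPKM in mutant 1 and 9.73 FPKM in mutant 2, against 12.1 FPKM in control 1 and 11.7 FPKM in control 2. Both mutants were lower than both controls, with a log2 difference of -0.34 (SE 0.0868, 95% interval -0.57 to -0.11, unadjusted p = 0.0126, adjusted p = 1.0 in limma). All 4 of its values lay above their own upper bounds, which limits how far its deposited precision can be used. The same was true of nkx2.2b, the duplicate of nkx2.2a, at 7.05 and 6.84 FPKM in the mutants and 7.23 and 7.69 FPKM in the controls (log2 -0.10, unadjusted p = 0.328 in limma).

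**Figure D3:**
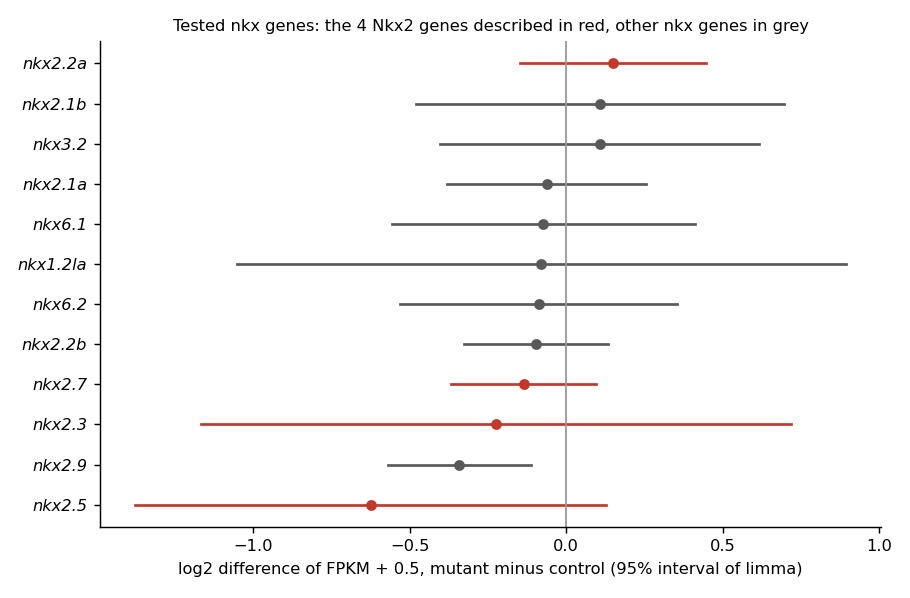
Log2 difference of FPKM + 0.5, mutant minus control (x axis), of the 12 tested nkx genes described (y axis) with the 95% interval of limma as bars, in red for nkx2.5, nkx2.7, nkx2.3 and nkx2.2a. The interval of nkx2.9 leaves out 0, from -0.57 to -0.11 before any adjustment over genes, and those of the other 11 reach across 0.

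The remaining tested genes had small differences or wide intervals. nkx2.1a (log2 -0.06), which current annotation names nkx2.4b, and nkx2.1b (log2 0.11), now nkx2.1, are genes of the ventral forebrain. nkx6.1 (log2 -0.07) and nkx6.2 (log2 -0.09) act in ventral neural progenitors, and nkx3.2 (log2 0.11) in the jaw joint. nkx1.2la, a gene of the posterior neural plate, had 1.39 and 2.26 FPKM in mutants 1 and 2 and 1.26 and 2.81 FPKM in controls 1 and 2. It was thus higher in both libraries numbered 2, as 23.9% of tested genes were and the reverse of nkx2.3. The order of nkx1.2la also held for nkx6.1 and nkx6.2. That of nkx2.3 was shared by nkx3.2 and, below the minimum, by nkx1.2lb. The gene listed as zgc:171531, which RefSeq synonyms name nkx2.4a, was chosen outside the symbol rule and stood at 3.37 ± 0.116 FPKM in the mutants and 3.20 ± 0.163 FPKM in the controls (SD, n = 2 each).

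Below the minimum were nkx3.3, nkx1.2lb and nkx6.3. nkx3.3, which lies 7.56 kb from nkx2.3, was at 0.837 and 0.666 FPKM in the mutants and at 0.679 and 0.830 FPKM in the controls. nkx1.2lb was at 0.754 and 0.524 FPKM in the mutants and at 0.811 and 0.672 FPKM in the controls. nkx6.3 was listed at 0.0320 FPKM in mutant 1 and at 0 in the other 3 libraries. Their groups overlapped.

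**Figure D4:**
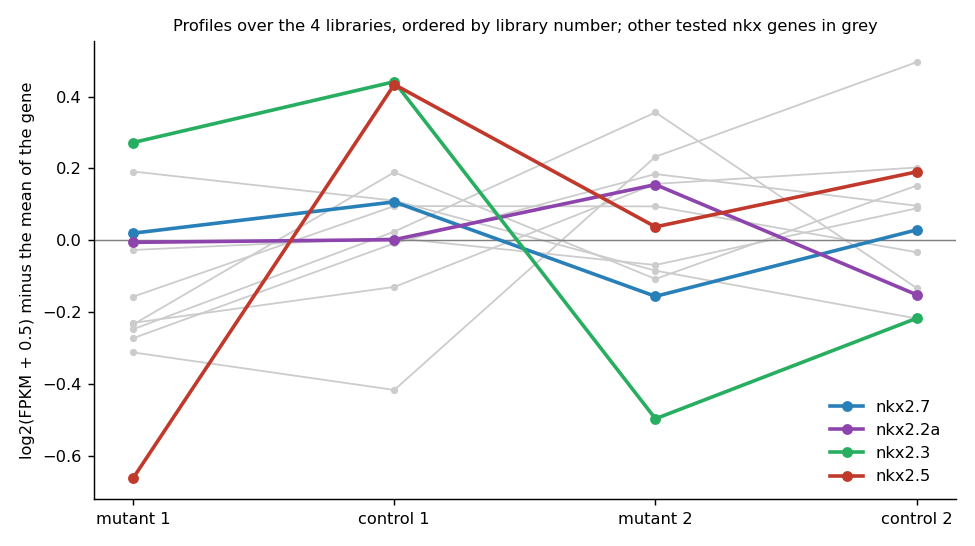
Log2(FPKM + 0.5) of the 12 tested nkx genes described minus the mean of each gene (y axis) in mutant 1, control 1, mutant 2 and control 2 (x axis); lines only link the points of a gene. The nkx2.3 points are high in the libraries numbered 1 and low in those numbered 2, and the nkx2.5 point is lowest in mutant 1.

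Likeness was measured as the Euclidean distance between log2 profiles over the 4 libraries after each gene's mean had been taken off. The comparison was with 13201 other tested genes at loci of at least 300 bp. Profiles were not scaled, so the distance depends on the size of the changes as well as on their pattern. A flat profile can thus be nearer than one of like shape, and the distance cannot show whether a paralog followed nkx2.5. The distance of nkx2.5 was 0.796 to nkx2.7, 0.864 to nkx2.2a and 1.15 to nkx2.3, and 28.2%, 56.9% and 95.8% of those genes were closer to it than these paralogs. The nearest were a gene with no symbol on an unplaced scaffold (ENSDARG00000088154, distance 0.124), foxl2 (0.191), HIST2H2AB (23 of 30) (0.241) and coq4 (0.250). foxl2, a forkhead gene, was at 2.61 and 3.85 FPKM in mutants 1 and 2 and at 5.50 and 4.21 FPKM in controls 1 and 2. coq4, a gene of coenzyme Q synthesis on chromosome 5, was at 0.931 and 1.32 FPKM in the mutants and at 2.16 and 1.73 FPKM in the controls. Within a distance of 0.2 there were 2 genes for nkx2.5 and 21 for nkx2.3, but 3291 for nkx2.7 and 2915 for nkx2.2a, whose flat profiles are shared by many genes.

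For the other members the nearest genes are named as a description. They were CR407701.1 (distance 0.0173), TARS2 (0.0237), the lipoprotein gene apoeb (0.0242) and SYTL1 (0.0289) for nkx2.7. For nkx2.3 they were TSPAN17 (0.0625), si:ch211-1k7.1 (0.0765), a gene that current annotation names hhla2a.1 (0.0872) and si:ch211-241j12.4 (0.0873). For nkx2.2a they were the blood factor gene gata1a (0.0281), immp2l (0.0283), cpd (0.0283) and RPAP3 (1 of 2) (0.0293).

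Heart field genes gave the setting for nkx2.5 and nkx2.7. Of 24 factors and signals of heart progenitors, 20 were tested. Of these, 9 were lower and 11 higher in the mutants (median log2 difference 0.04), against 42.8% lower of all tested genes. None of the 20 passed the adjusted threshold in limma (0.0669% of all tested genes did), and 1 had an unadjusted p under 0.05 (1.99% did). This was hey2, a Notch-responsive repressor gene, at 2.99 and 3.06 FPKM in the mutants and 4.94 and 3.97 FPKM in the controls (log2 -0.48, unadjusted p = 0.0188 in limma). Next were tmem88a, a gene of a Wnt inhibitor in heart progenitors, at a log2 difference of 0.19, and fgf10b, a gene of an FGF ligand, at 0.23. isl1, a LIM-homeobox gene of heart progenitors and neurons, averaged 15.0 FPKM in the mutants and 15.4 FPKM in the controls. Of 13 heart muscle genes matched, 11 missed the minimum, among them myl7, vmhc and myh6, while cmlc1 and nppa were listed at 0 in all 4 libraries. actc1a (log2 -0.09) and tpm4a (log2 0.02), both also used in other cells, were the 2 tested.

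Endoderm genes gave the setting for nkx2.3 and the pharyngeal part of nkx2.7. Among the 12 tested endoderm and pouch genes, 9 had a negative difference (median log2 difference -0.07), against 42.8% of all tested genes. The gene tbx1 was among these 9. In limma 0 passed the adjusted threshold (0.0669% of all tested genes did) and 1, tbx1, had an unadjusted p under 0.05 (1.99% did). The FGF ligand gene fgf3 (log2 -0.21, unadjusted p = 0.0595 in limma) and the forkhead gene foxa1 (log2 -0.14) had the lowest p-values after tbx1. The pouch gene pax9 averaged 1.01 FPKM in the mutants and 1.25 FPKM in the controls, close to the level of nkx2.3.

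Genes of the Hedgehog pathway and of the neural tube, with no nkx gene among them, gave the setting for nkx2.2a. Of 28 tested, 23 were higher and 5 lower in the mutants, with a median log2 difference of 0.06, and 0 passed the adjusted threshold and 0 an unadjusted p of 0.05 in limma. Over all tested genes the share lower was 42.8%, while 0.0669% passed the adjusted threshold and 1.99% had an unadjusted p under 0.05 in limma. Of the other ventral neural nkx genes described, nkx2.9 (log2 -0.34), nkx2.2b (-0.10), nkx6.1 (-0.07), nkx6.2 (-0.09) and nkx2.1a (-0.06) were lower. Among those taken by symbol, only nkx2.1b (0.11) was higher. zgc:171531, chosen outside the symbol rule, stood at 0.06. The lowest p-values in the list belonged to pax6b (log2 0.19, unadjusted p = 0.0563 in limma), irx3a (log2 -0.16, unadjusted p = 0.0589 in limma) and gas1a (log2 0.14). The first pair encode homeodomain factors of the neural tube and gas1a a Hedgehog coreceptor. The ligand gene shha averaged 9.80 FPKM in the mutants and 9.33 FPKM in the controls, and the transcription factor gene gli1 averaged 5.16 FPKM in the mutants and 4.67 FPKM in the controls. Of 12 tested notochord and floor plate genes, 8 were higher (median log2 difference 0.03), with col9a2 at 0.26, ntn1b at -0.16 and col2a1a at 0.11. The 2 lists are not separate, since both hold shha, shhb, ntn1a, ntn1b and foxj1a.

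**Figure D5:**
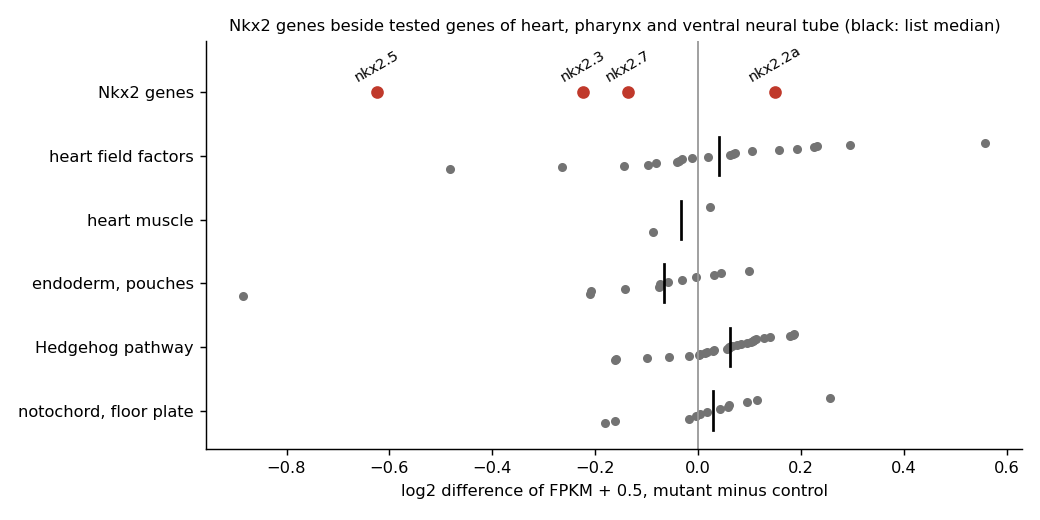
Log2 difference of FPKM + 0.5, mutant minus control (x axis), of the 4 Nkx2 genes (red) and of tested genes in each list (grey dots, y axis), with the list median as a black line. nkx2.5, at -0.62, lies below every tested heart field gene, the lowest of which is hey2 at -0.48. The highest is mef2cb at 0.56, also a low gene, which averaged 1.65 FPKM in the mutants and 0.989 FPKM in the controls. Not shown are 4 heart field genes under the minimum, which nkx2.5 passed only through the controls. Of these, fgf10a averaged 0.228 FPKM in the mutants and 0.557 FPKM in the controls, while tbx5a, mespab and ltbp3 averaged higher in the mutants.

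Genes of the tissues that were trimmed off also varied. All 10 tested yolk syncytial genes were lower in the mutants (median log2 difference -0.09, range -0.19 to -0.01), against 42.8% of all tested genes. Their summed level with the untested genes was 9016 and 8149 FPKM in mutants 1 and 2 and 9562 and 9064 FPKM in controls 1 and 2. Among them apoc2 (-0.13), serpina1l (-0.09) and gata6 (-0.08), also a heart field gene, had the lowest p-values. mxtx2, a defining yolk syncytial factor, averaged 0.0683 FPKM in the mutants and 0.0375 FPKM in the controls. The sum was lowest in mutant 2, as was nkx2.7, and a link between them was not tested. The genes of the sum did not all change in the same direction between libraries. Between library numbers 1 and 2, apoa1a fell from 3134 to 2505 FPKM in the mutants. In the controls it fell from 3537 to 2878 FPKM. apoeb fell from 2858 to 2513 FPKM in the mutants and from 2967 to 2850 FPKM in the controls. In the other direction, apoc1 rose from 1349 to 1417 FPKM in the mutants and from 1329 to 1455 FPKM in the controls. tfa rose from 1066 to 1104 FPKM in the mutants and from 1088 to 1214 FPKM in the controls. The summed level of 14 tailbud genes at 15 loci was 241.5 and 319.0 FPKM in mutants 1 and 2 and 250.4 and 351.0 FPKM in controls 1 and 2. It was thus higher in both libraries numbered 2, as nkx1.2la was and nkx2.3 was not. For 8 of the 12 tested tailbud loci the mutant estimate was below 0 (median log2 difference -0.06), against 42.8% of all tested genes. The lowest p-values among these loci belonged to tbx16 (0.21), hoxb10a (-0.23) and ntla (-0.18). The part of these tissues in the values of the Nkx2 genes was not tested. In whole embryos fewer cells of a type and less RNA per cell cannot be told apart.

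Genes next to the members on the chromosome were compared as well. Within 100 kb of nkx2.5 there were 6 tested genes, with log2 differences of -0.05 to 0.14. Of these, 0 had an unadjusted p under 0.05 in limma, against 1.99% of all tested genes. The closest, bnip1a, averaged 2.07 FPKM in the mutants and 2.15 FPKM in the controls. stc2a was lower in both libraries numbered 2, at 3.76 and 2.49 FPKM in mutants 1 and 2 and 3.53 and 2.08 FPKM in controls 1 and 2. Near nkx2.7, slc25a37 had a log2 difference of 0.00. Near nkx2.3, got1 stood at 0.13 and pyroxd2 at 0.20, and near nkx2.2a, pax1a stood at 0.10.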

How the data were processed

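RNA of 4 libraries, 2 of tbx1 mutants and 2 of wild-type controls, was measured by paired-end sequencing of polyadenylated RNA. Per the submitters' processing notes, Cuffdiff 2.0.2, Cufflinks 2.1.1 and TopHat2 2.0.8 were used with Zv9 (danRer7), in roles and an order not given in the sources used here. Values were deposited as FPKM in 1 table (titled RPKM per the file headers), with 95% bounds and an estimate status. Of 32538 genes, 138 had another status than OK in a library and 18952 a mean below 1 FPKM. The other 13448 were fitted with limma 3.58.1 in R 4.3.3 on log2(FPKM + 0.5), with a mean-variance trend, Benjamini-Hochberg adjustment over all of them and a threshold of 0.05. This gave 4.66 degrees of freedom (prior 2.66), and the fit was tested on simulated data. Ratios between genes were compared by exact permutation over libraries. Depth is known only relative to control 1.

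The Nkx2 genes, lists and tests were chosen with earlier results of these data known. Named in the text are the 4 genes, the other nkx genes described, tbx1, the 3 tested genes of lowest p in each list and the 4 genes of nearest profile. The rest (isl1, mef2cb, pax9, shha, gli1, heart muscle genes, untested heart field genes, flanking genes and zgc:171531) were chosen after their values were seen. So were the yolk syncytial genes mxtx2, apoa1a, apoc1 and tfa. Entries were matched by table symbol, otherwise by gene ID. Alternatives were other pseudocounts, minimums, scalings, empirical Bayes settings, a replicate block and leaving out libraries, short loci or chromosome 5. Figures were drawn with matplotlib 3.10.9. Some genes are not reported here; they stayed in the fit and the list counts but not in the counts over nkx genes, which therefore do not cover the whole family.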

Additional observations from a re-analysis of the deposited data

How the results depend on the processing

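For nkx2.5, nkx2.7, nkx2.3 and nkx2.2a, 16 alternative fits gave 62 results, and 0 had an adjusted p under 0.05. The lowest was 0.624 in limma, for nkx2.5 with loci under 300 bp left out and a replicate block. With a library left out the log2 difference ranged from -0.97 to -0.27 for nkx2.5, from -0.22 to -0.05 for nkx2.7, from -0.61 to 0.16 for nkx2.3 and from 0.07 to 0.23 for nkx2.2a. nkx2.5 was at -0.86 with a pseudocount of 0.1 and at -0.47 with a pseudocount of 1. At a minimum mean of 5 FPKM, nkx2.5 and nkx2.3 were not tested. The nkx2.5 to nkx2.7 ratio ranged from -0.93 to -0.05 without a library, that to nkx2.3 from -1.13 to 0.33 and that to nkx2.2a from -1.04 to -0.50.

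The number of genes called in limma, 9, went to 28 to 39 without a library, 16 with robust empirical Bayes, 14 at a threshold of 0.10 and 24 with short loci left out and the replicate block. The labels give the library numbers no meaning, and with 2 pairs they are not taken to pair the samples. Same-numbered libraries deviated together (correlation 0.347 across genes, which are not independent). The replicate block called 9 genes, 8 of them shared with the fit without it, and gave adjusted p = 0.920 for all 4 Nkx2 genes in limma.

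Of the named genes refitted under the alternatives, tbx1 alone passed in one of them (adjusted p = 0.00976 in limma with short loci left out and the replicate block, the highest of its alternatives being 1.0). Signs turned only when a library was left out, which leaves the library numbers unbalanced between groups. The ranges were -0.32 to 0.14 for nkx6.2, -0.27 to 0.12 for nkx6.1, -0.19 to 0.063 for nkx2.1a, -0.19 to 0.41 for nkx2.1b, -0.54 to 0.38 for nkx1.2la, -0.057 to 0.27 for nkx3.2, -0.29 to 0.11 for actc1a, -0.034 to 0.079 for tpm4a, -0.45 to 0.091 for ntla, -0.037 to 0.45 for tbx16, -0.56 to 0.087 for hoxb10a and -0.054 to 0.28 for col2a1a. They were -0.65 to 0.093 for TSPAN17, -0.56 to 0.13 for si:ch211-1k7.1, -0.59 to 0.17 for ENSDARG00000043182 and -0.65 to 0.13 for si:ch211-241j12.4. List medians also changed sign, with ranges of -0.038 to 0.067 for heart field, -0.15 to 0.083 for heart muscle, -0.065 to 0.069 for notochord and floor plate and -0.34 to 0.14 for tailbud genes. No scaling turned the sign of a gene it was run for. The cause of these shifts was not tested. With 2 libraries a group, small differences at the level of nkx2.5 were not detectable. Large ones could be missed too, since tbx1, at a log2 difference of -0.88, had adjusted p = 0.227 in the main limma fit.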
